A study of Homo sapiens with 16 samples.

Results

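The proteasome subunits described here are 7 of the 594 genes in the table: the immunosubunits PSMB8, PSMB9 and PSMB10 and the standard subunits PSMB5, PSMB7, PSMC2 and PSMD7, taken by name. Transcripts were counted with barcoded probes on the nCounter Human Immunology v2 panel in 16 samples of OCI-AML2, an established human acute myeloid leukaemia cell line. All samples carried short hairpin RNA constructs, against PNPase in 8 samples and against SUV3 in 8 samples; no control cells are analysed here, so every comparison is between knockdowns or between days. Each knockdown had 2 cultures, called biological replicates in the series' design text, which are numbered 545 and 1717 for PNPase and 1595 and 1727 for SUV3, and each was sampled on days 3, 4, 5 and 6. No label explains these numbers, and if they mark different hairpins, hairpin and culture cannot be told apart. PNPase is the mitochondrial exoribonuclease encoded by PNPT1 and SUV3 is the mitochondrial RNA helicase encoded by SUPV3L1; the transcripts of both targets are not analysed here, so the labels were not checked against them.

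The proteasome is the barrel-shaped protease that degrades ubiquitin-tagged proteins, and its core particle holds the catalytic subunits. In cells exposed to interferon-gamma, newly made cores take up PSMB8 in place of PSMB5, PSMB10 in place of PSMB7 and PSMB9 in place of PSMB6, which gives the immunoproteasome. That particle cuts more peptides of the kind that TAP1 and TAP2 carry to MHC class I molecules, and blood cells hold some of it without any stimulus. PSMC2 is an ATPase and PSMD7 a lid subunit of the regulatory particle that both forms share, so these proteins are standard in either form. IRF1 is among the factors that carry the interferon signal to the promoters of immunosubunit and class I genes, whereas NFE2L1 raises standard subunit genes when proteasome activity is short.

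The promoter windows of the immunosubunits are shown because their letters differ from one another and are used beside the expression profiles further on. RefSeq windows for GRCh38.p14, from 250 bases before to 50 bases after a transcript start, were found for 6 of the 7 members; PSMB7 is named only. The deposited values name no genome build. Searched on both strands were GAAANNGAAA, the paired half-site of the interferon-stimulated response element, TTCNNNGAA, the palindromic core of the gamma-activated site (GAS), and TGACNNNGC, the core of the antioxidant response element. They occurred in 3.57%, 7.66% and 13.3% of the 35116 windows of the same length. Capitals mark every match in these lines, each printed 5' to 3' on the gene's strand, at chr6:32843998-32844297 (minus strand) for PSMB8, chr16:67936801-67937100 (minus strand) for PSMB10, chr6:32853942-32854241 (plus strand) for PSMB9, chr15:44711267-44711566 (plus strand) for B2M and chr6:33314029-33314328 (minus strand) for TAPBP.
PSMB8: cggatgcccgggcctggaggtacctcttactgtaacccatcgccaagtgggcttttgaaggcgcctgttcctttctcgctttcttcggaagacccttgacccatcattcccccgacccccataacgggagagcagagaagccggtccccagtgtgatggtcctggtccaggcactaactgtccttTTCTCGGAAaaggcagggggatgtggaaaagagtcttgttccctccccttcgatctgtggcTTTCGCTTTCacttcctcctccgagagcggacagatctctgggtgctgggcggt
PSMB10: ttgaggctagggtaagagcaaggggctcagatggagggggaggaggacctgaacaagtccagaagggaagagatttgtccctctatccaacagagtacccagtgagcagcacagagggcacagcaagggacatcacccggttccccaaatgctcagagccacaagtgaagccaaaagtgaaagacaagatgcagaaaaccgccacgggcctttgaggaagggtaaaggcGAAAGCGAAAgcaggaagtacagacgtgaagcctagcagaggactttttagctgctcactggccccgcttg
PSMB9: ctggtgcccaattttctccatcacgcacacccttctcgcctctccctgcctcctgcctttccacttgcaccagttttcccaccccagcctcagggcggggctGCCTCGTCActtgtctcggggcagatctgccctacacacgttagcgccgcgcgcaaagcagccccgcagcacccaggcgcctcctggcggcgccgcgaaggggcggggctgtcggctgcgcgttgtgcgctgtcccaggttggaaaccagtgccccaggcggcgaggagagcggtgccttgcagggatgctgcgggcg
B2M: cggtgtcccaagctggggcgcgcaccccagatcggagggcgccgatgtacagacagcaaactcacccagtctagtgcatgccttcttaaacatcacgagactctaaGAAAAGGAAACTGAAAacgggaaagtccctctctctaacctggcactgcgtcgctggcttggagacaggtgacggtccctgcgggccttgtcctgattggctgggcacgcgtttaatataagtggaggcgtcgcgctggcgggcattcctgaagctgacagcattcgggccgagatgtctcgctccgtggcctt
TAPBP: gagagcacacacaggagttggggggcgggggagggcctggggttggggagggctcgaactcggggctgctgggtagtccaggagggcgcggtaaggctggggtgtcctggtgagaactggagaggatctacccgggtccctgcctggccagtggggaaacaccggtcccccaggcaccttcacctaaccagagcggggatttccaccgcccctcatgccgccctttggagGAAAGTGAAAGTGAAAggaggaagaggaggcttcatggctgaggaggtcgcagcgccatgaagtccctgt
The PSMB8 window held 1 response element pair at the transcript start, its first base at -4, and 1 GAS core at -65. PSMB10 held 1 response element pair at -21. The PSMB9 window, whose gene lies next to TAP1 on chromosome 6, held neither of these and 1 antioxidant core at -148. B2M, the light chain of MHC class I, held 2 response element pairs at -144 and -138 that overlap each other, and TAPBP, the tapasin that bridges TAP and class I, held 2 overlapping pairs at -20 and -14. Another start of PSMB8 and the windows of PSMC2 and PSMD7 held no match to these letters, and 1 of the 2 windows of PSMB5 held 2 GAS cores, at -158 and -15. A match is a description of the letters in this window only.

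**Figure D1:**
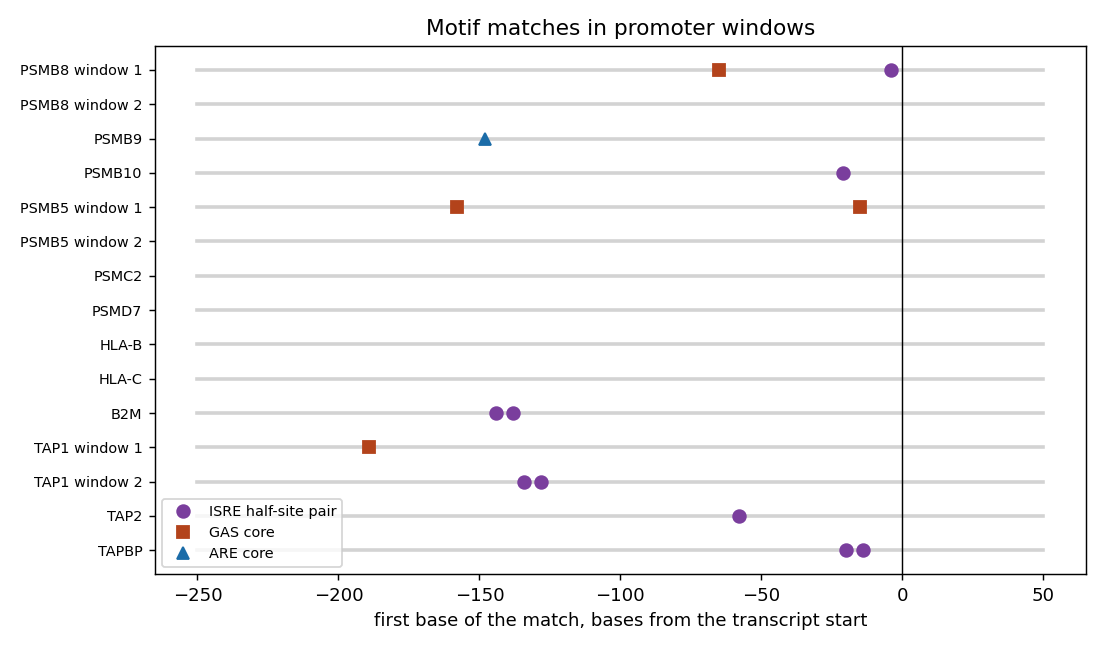
Positions of motif matches in RefSeq promoter windows of the subunits and MHC class I loading genes, in bases from the transcript start (x axis; grey lines span the windows from 250 before to 50 after). Purple circles are paired response element half-sites, orange squares GAS cores and the blue triangle the antioxidant core. Pairs were found for PSMB8, PSMB10, B2M, TAP1, TAP2 and TAPBP, and none in the windows of PSMB9, PSMB5, PSMC2 and PSMD7; no window of PSMB7 was searched.

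Deposited totals ran from 311396 to 493370 per sample, and the mean over 8 negative control probes was 6.80 (SD 3.05). All 7 subunits stood far above the upper level of these probes, 12.9: the lowest deposited value of any member was 158, for PSMB9. Values are given as log2 of the deposited value + 1 after each sample was divided by the geometric mean of 15 housekeeping genes, and differences are on the same log2 scale. The housekeeping factor spanned 2.03-fold over samples and averaged -0.35 on day 3 and 0.12 on days 4 to 6, so differences between day 3 and later days rest on it. It averaged 0.15 in PNPase and -0.15 in SUV3 samples, so differences between knockdowns rest on it too. The spiked positive controls also separated the knockdowns without overlap, from 0.02 to 0.29 for PNPase and from -0.26 to 0.01 for SUV3 on the log2 scale, and the part of this in the results was not tested. Of the 11 myeloid markers measured, 10 were above the negative controls, with sums from 5775 to 27719 in PNPase and from 4301 to 41747 in SUV3 samples. S100A8 and S100A9 averaged deposited values of 4650 and 8739, against 758 for the next marker, CSF3R, so these sums mostly follow those genes. Above the negative controls were also 1 of 9 T cell markers (CD4), 1 of 5 NK cell markers (NCAM1) and 3 of 6 B cell markers. In RNA from a whole culture, fewer cells of a kind and less RNA per cell cannot be told apart.

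PSMB8, the immunosubunit that replaces PSMB5, differed as much between cultures of the same knockdown as between knockdowns. In PNPase replicate 545 its level was 11.49, 11.24, 11.34 and 11.28 on days 3, 4, 5 and 6, and in replicate 1717 it was 11.36, 10.94, 10.79 and 10.88. In SUV3 replicate 1595 the level was 11.39, 11.12, 11.07 and 11.11, and in replicate 1727 it was 11.76, 11.53, 11.77 and 11.77. Replicate 1727 was the highest of the 4 cultures on every day, 1717 was the lowest on every day, and the other PNPase and SUV3 cultures lay between them, so the knockdowns overlapped. Averaged over days, the knockdowns stood at 11.16 ± 0.24 for PNPase and 11.44 ± 0.38 for SUV3 (SD, n = 2).

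PSMB10, which replaces PSMB7, had its lowest values in SUV3 replicate 1595. PNPase replicate 545 gave 10.36, 10.29, 10.22 and 10.30 on days 3 to 6, and 1717 gave 10.61, 10.39, 10.19 and 10.20. SUV3 replicate 1595 gave 10.33, 9.96, 9.86 and 9.84, and 1727 gave 10.25, 10.02, 10.20 and 10.19. On days 3, 4 and 6 both PNPase cultures lay above both SUV3 cultures, and on day 5 1727 lay just above 1717. The culture means did not overlap, at 10.32 ± 0.04 for PNPase and 10.08 ± 0.12 for SUV3 (SD, n = 2).

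PSMB9 gave deposited values from 158 to 490 and had the widest SD of the 7 members over the 16 samples, 0.33. PNPase replicate 545 gave 8.59, 8.07, 8.20 and 8.53 on days 3 to 6, and 1717 gave 8.63, 8.54, 8.11 and 8.42. SUV3 replicate 1595 gave 7.81, 7.78, 7.59 and 7.80, and 1727 gave 8.18, 8.16, 8.27 and 8.54. All 4 samples of 1595 lay below every other sample, both PNPase cultures dipped on day 4 or 5 and stood higher again on day 6, and 1727 was highest on day 6. The culture means were 8.38 ± 0.06 for PNPase and 8.02 ± 0.38 for SUV3 (SD, n = 2) and did not overlap, with 1727 at 8.29 just under 545 at 8.34.

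Among the standard subunits, PSMB5, the core subunit with chymotrypsin-like activity, had its lowest value on day 3 in 3 of the 4 cultures. PNPase replicate 545 gave 11.08, 11.32, 11.34 and 11.11 on days 3 to 6, and 1717 gave 10.59, 11.01, 11.04 and 10.96. SUV3 replicate 1595 gave 10.89, 11.05, 11.20 and 11.05, whereas 1727 gave 11.69, 11.26, 11.58 and 11.37. Day 3 was therefore the lowest day in 545, 1717 and 1595 and the highest day in 1727. Culture means overlapped between knockdowns, at 11.05 ± 0.22 for PNPase and 11.26 ± 0.30 for SUV3 (SD, n = 2).

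PSMB7, the core subunit with trypsin-like activity, varied little within cultures other than 1727. Its level was 12.06, 11.94, 12.01 and 11.97 in PNPase replicate 545 and 12.17, 12.18, 12.21 and 12.08 in 1717 on days 3 to 6. It was 12.29, 12.12, 12.20 and 12.12 in SUV3 replicate 1595 and 12.66, 12.29, 12.46 and 12.31 in 1727. Culture means did not overlap, at 12.08 ± 0.12 for PNPase and 12.31 ± 0.17 for SUV3 (SD, n = 2), although 1717 at 12.16 and 1595 at 12.18 were nearly the same.

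The regulatory particle subunits PSMD7 and PSMC2 had profiles close to that of PSMB7. PSMD7 ranged from 11.81 to 12.43 over the 16 samples with a median of 11.999, and PSMC2 from 10.64 to 11.37 with a median of 10.88; for both, the highest sample was replicate 1727 on day 3. The root mean square difference between centred profiles over 16 samples was 0.08 for PSMB7 with PSMD7, the smallest of the 21 pairs of members. It was 0.15 for PSMC2 with PSMD7 and with PSMB7, and 0.20 to 0.23 for PSMB5 with the other 3. Among the immunosubunits the distance was 0.22 for PSMB9 with PSMB10, 0.33 for PSMB8 with PSMB10 and 0.38 for PSMB8 with PSMB9, so that PSMB8 was nearer to each standard subunit, at 0.25 to 0.28, than to its fellow immunosubunits. All 7 members were among the steadier genes: their SD over the 16 samples was 0.17 to 0.33, against a median of 0.39 over the 354 genes above the negative controls.

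**Figure D2:**
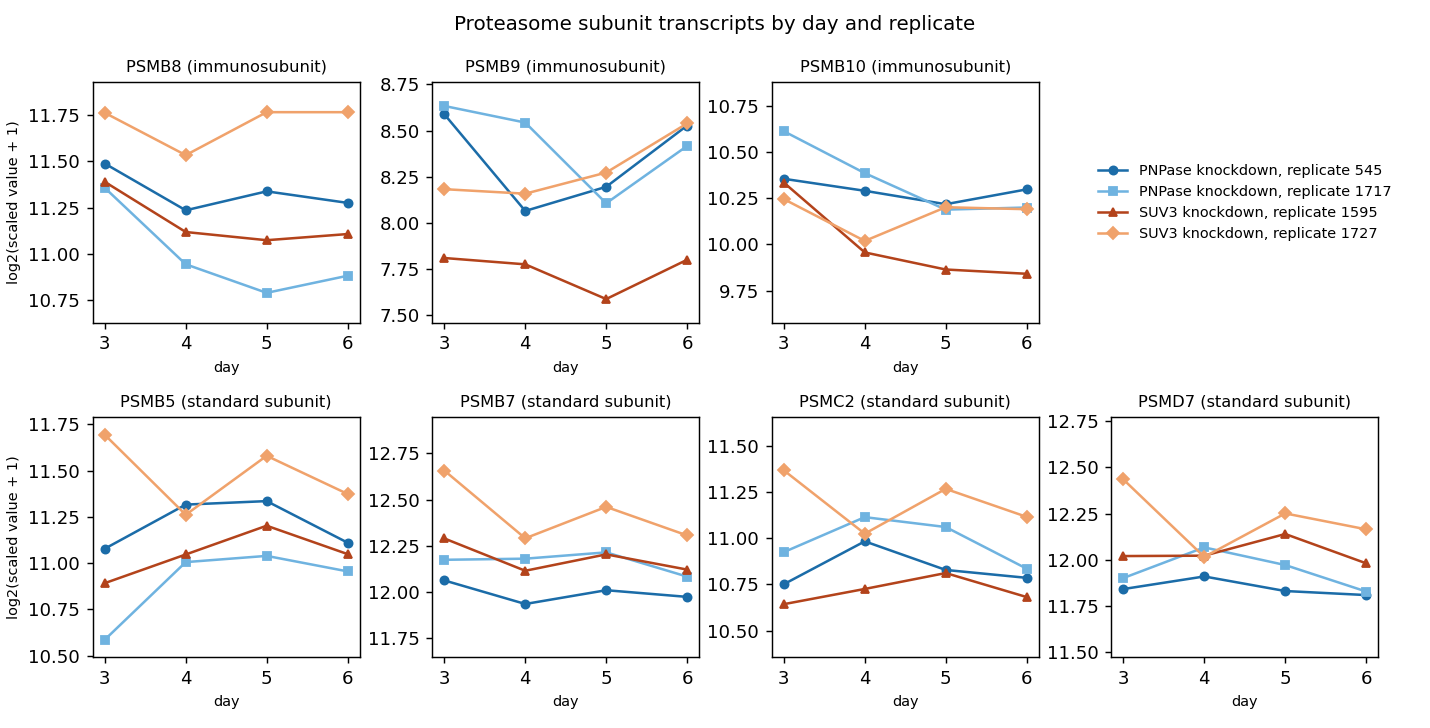
Housekeeping-scaled log2 level (y axis, same span in each panel) of the 7 subunits by day (x axis), 1 line per culture; blue lines are PNPase and orange or brown lines SUV3 cultures, 1 sample per point. Replicate 1727 is the highest culture for PSMB8 and PSMB7 on every day, replicate 1595 is the lowest for PSMB9, and PSMB5 is lowest on day 3 in the other 3 cultures.

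The first comparison asked whether the subunits differed between PNPase and SUV3 knockdown, on the 4 culture means. PSMB9 was 0.37 ± 0.27 (SE) and PSMB10 0.24 ± 0.22 higher in PNPase knockdown, 1.29-fold and 1.18-fold. PSMB8 differed by -0.28 ± 0.29, PSMB5 by -0.21 ± 0.27, PSMB7 by -0.23 ± 0.23, PSMD7 by -0.23 ± 0.22 and PSMC2 by -0.04 ± 0.26, all PNPase minus SUV3. None of the 7 passed limma's test after Benjamini-Hochberg adjustment over 594 genes, with adjusted p of 0.771 for PSMB9, 0.831 for PSMB10 and 0.854 for PSMB8. That is the count over the whole table too: 0.0% of genes passed, and 6.40% (38) had an unadjusted p below the threshold, among them 0 of the 7 members. Culture means did not overlap for 4 of 7 members, PSMB9 and PSMB10 higher in PNPase and PSMB7 and PSMD7 higher in SUV3, against 38.4% of all genes, so this share is near the background. The median of all genes was itself at -0.15, and relative to that median PSMB9 and PSMB10 were at 0.52 and 0.39. Without scaling, that median lay at 0.12, PSMB9 and PSMB10 stayed above it by 0.55 and 0.42, and the differences of the other 5 members turned positive. PSMC2 was at 0.014 when scaled by the total. Single cultures moved these values: without replicate 1595 the PSMB9 difference was 0.10 and without 1727 it was 0.64. In the same order PSMB10 was at 0.15 and 0.32, PSMB8 at -0.54 and -0.01, PSMB7 at -0.35 and -0.10 and PSMD7 at -0.32 and -0.15. Without 545 and without 1717 the PSMB8 difference was -0.45 and -0.11.

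Ratios of an immunosubunit to the standard subunit whose place it takes do not depend on how a sample was scaled, so they bear on the makeup of the proteasome transcripts. Levels of different probes cannot be set against each other, and only shifts of a ratio between samples are read. PSMB10 over PSMB7 stood, in log2, at -1.71, -1.65, -1.79 and -1.68 in PNPase replicate 545 and at -1.56, -1.79, -2.03 and -1.88 in 1717 on days 3 to 6. It stood at -1.96, -2.16, -2.34 and -2.28 in SUV3 replicate 1595 and at -2.41, -2.27, -2.26 and -2.12 in 1727. All SUV3 samples lay below all PNPase samples except that 1595 on day 3 lay above 1717 on day 5. The culture means were -1.76 ± 0.08 for PNPase and -2.22 ± 0.06 for SUV3 (SD, n = 2), a difference of 0.46 or 1.38-fold that was larger than the spread between cultures. The two-sided exact permutation p was 0.333, which is the smallest that 2 against 2 cultures can give, and 0.333 adjusted over the 2 paired ratios. Leaving out any 1 culture gave differences from 0.41 to 0.52.

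For PSMB8 over PSMB5 the difference was smaller and of the other sign. Culture means were 0.11 ± 0.02 for PNPase and 0.18 ± 0.07 for SUV3 (SD, n = 2), a difference of -0.07; they did not overlap, though 545 and 1595 were both at 0.12. Samples ran from -0.25 to 0.77 and from -0.13 to 0.50. The exact permutation p was again 0.333, the smallest possible, and the ranges of single samples overlapped nearly whole. PSMB6, the standard partner of PSMB9, is not analysed here, so PSMB9 was set against the mean of the 4 standard subunits. That ratio was -3.10 ± 0.04 for PNPase and -3.65 ± 0.15 for SUV3 (SD, n = 2), a difference of 0.55 or 1.46-fold (0.41 without day 3), with samples from -3.47 to -2.76 and from -4.00 to -3.20. The mean of the 3 immunosubunits over the mean of the 4 standard subunits was -1.53 ± 0.06 and -1.82 ± 0.06, a difference of 0.29 or 1.22-fold. Without PSMB8 in the mean this difference was 0.48, and without PSMB9 it was 0.16. With all samples scaled by the standard subunits in place of the housekeeping genes and all genes fitted, limma's adjusted p was 0.997 for PSMB10, 0.940 for PSMB9 and 0.997 for PSMB8.

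**Figure D3:**
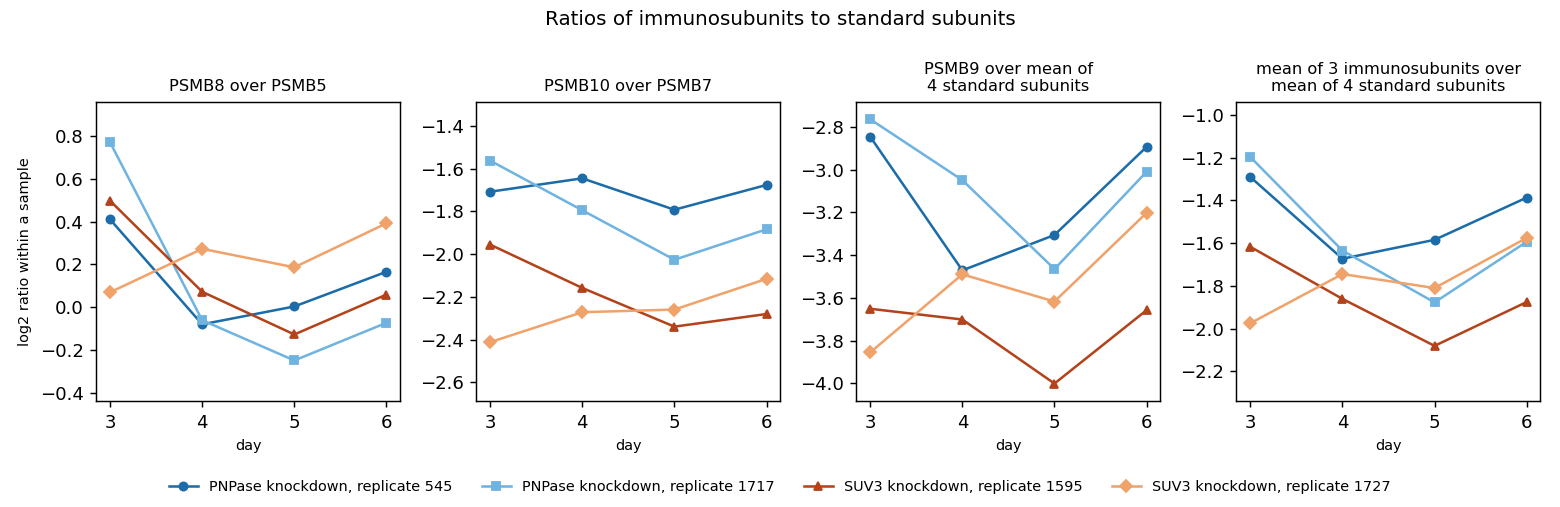
Log2 ratios within a sample (y axis) by day (x axis), 1 line per culture, for PSMB8 over PSMB5, PSMB10 over PSMB7, PSMB9 over the mean of 4 standard subunits and the mean of 3 immunosubunits over that mean. PNPase cultures lie above SUV3 cultures for PSMB10 and PSMB9 by 0.46 and 0.55 on average, and the PSMB8 ratio differs by -0.07 with the single samples overlapping. In each panel replicate 1727 ends day 6 above its day 3 and 1717 and 1595 end below theirs. For PSMB9 replicate 1595 is nearly level, with day 6 minus day 3 at -0.0065.

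The next comparison set day 3 against the mean of days 4 to 6, with both knockdowns averaged and each culture as a block. PSMB8 was 0.26 ± 0.09 (SE) and PSMB10 0.25 ± 0.10 higher on day 3, 1.20-fold and 1.19-fold, and day 3 was above the later mean in 4 of 4 cultures for both. Limma's adjusted p was 0.087 for PSMB8 and 0.114 for PSMB10, so neither passed, although both had an unadjusted p below the threshold, 0.020 and 0.031. The other differences were 0.14 ± 0.11 for PSMB9, 0.14 ± 0.07 for PSMB7, 0.05 ± 0.08 for PSMD7, -0.01 ± 0.08 for PSMC2 and -0.13 ± 0.10 for PSMB5. Of the members 0 of 7 passed after adjustment and 2 of 7 before, against 16.2% (96, of which 78 higher and 18 lower on day 3) and 32.7% of all genes. Day 3 was above the later mean in all 4 cultures for 3 of 7 members, PSMB8, PSMB10 and PSMB7, against 25.9% of all genes. These shares are near the background. The median of all genes was 0.19 in this contrast, which left PSMB8 and PSMB10 at 0.08 and 0.06 above it and PSMB5 and PSMC2 at -0.31 and -0.20 from it. Scaled by the total the median was -0.02, PSMB8 and PSMB10 were at 0.05 and 0.03 and PSMB9, PSMB7 and PSMD7 turned negative; without scaling the median was -0.25 and all 7 members were negative. With only genes above the negative controls tested, PSMB8 passed, at an adjusted p of 0.034.

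Replicate 1727 took its own course. Its day 3 minus later difference was 0.29 for PSMB5, 0.30 for PSMB7, 0.23 for PSMC2 and 0.29 for PSMD7, whereas in the other 3 cultures PSMB5, PSMC2 and PSMD7 were lower on day 3 and PSMB7 was at most 0.14 higher. For PSMB8 over PSMB5, day 3 minus later was 0.38 in 545, 0.90 in 1717 and 0.50 in 1595, and -0.21 in 1727. For PSMB10 over PSMB7 it was -0.003, 0.34 and 0.30 and then -0.20, and for PSMB9 over the standard subunits 0.38, 0.41 and 0.14 and then -0.42, in the same order. The immunosubunit ratios of 1727 thus started lowest of its days and ended highest, and those of 1717 and 1595 were highest on day 3. This contrast between cultures rests on 1 culture and was not tested.

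Along the days no member passed limma's test. The smallest p in PNPase knockdown was that of PSMB8, at -0.11 ± 0.05 per day (SE, adjusted p = 0.265), and in SUV3 knockdown that of PSMB7, at -0.06 ± 0.04 per day (adjusted p = 0.489). For the difference of the slopes it was that of PSMB9, at -0.11 ± 0.10 per day (adjusted p = 0.984). After adjustment 0.168% of all genes passed in PNPase knockdown (1 gene), 1.68% in SUV3 knockdown (10 genes) and 0.0% for the difference. Unadjusted, 22.1%, 14.1% and 6.57% of genes were below the threshold, and 0 of 7 members in each. Without scaling, 6 of the 7 slopes changed sign in either knockdown, so no direction is read from them.

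Of the 6 class I loading genes, B2M was among the 3 nearest profiles to PSMB8 and TAPBP among the 3 nearest to PSMB10. Likeness was measured as the root mean square difference of centred log2 levels over the 16 samples, among 347 other genes above the negative controls; samples of 1 culture share their source, so it is a description. For PSMB8 the nearest gene was B2M at 0.11, followed by the kinase gene MAP4K2 and the chemokine gene CCL5, both at 0.18, against a median of 0.43. For PSMB10 they were CD99, a surface glycoprotein, at 0.11, TAPBP at 0.12 and the inflammasome adaptor PYCARD at 0.15, against 0.43. PSMB9 had no neighbour as close: the protease gene CTSS stood at 0.20 and NCAM1 at 0.21, against 0.52. Such a distance also depends on how much the genes vary. The SD over the 16 samples was 0.33 for PSMB9 and 0.20 for PSMB10, and TAPBP varied little, with an SD of 0.12. A short distance between steady genes is therefore partly their low spread. The mean of the standard subunits was nearest to BCAP31, a chaperone of the endoplasmic reticulum, at 0.14, to the kinase gene CHUK and to C1QBP, a mitochondrial protein, both at 0.15, against 0.42. B2M stood at 13.69, 13.53, 13.49 and 13.52 in replicate 545 and at 14.11, 13.89, 14.25 and 14.17 in replicate 1727 on days 3 to 6, the same culture that was highest for PSMB8. Of the promoter windows printed above, those of PSMB8, B2M, PSMB10 and TAPBP each held a response element pair and that of PSMB9 did not, but the second window of TAP1, which overlaps the far end of that of PSMB9 on the other strand, held 2. TAP2 held a pair and was below its later mean on day 3 in 4 of 4 cultures. HLA-C held no exact match to these letters and was above its later mean in 4 of 4. Windows of the other near genes are not shown, and whether the letters bear on the profiles was not tested.

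**Figure D4:**
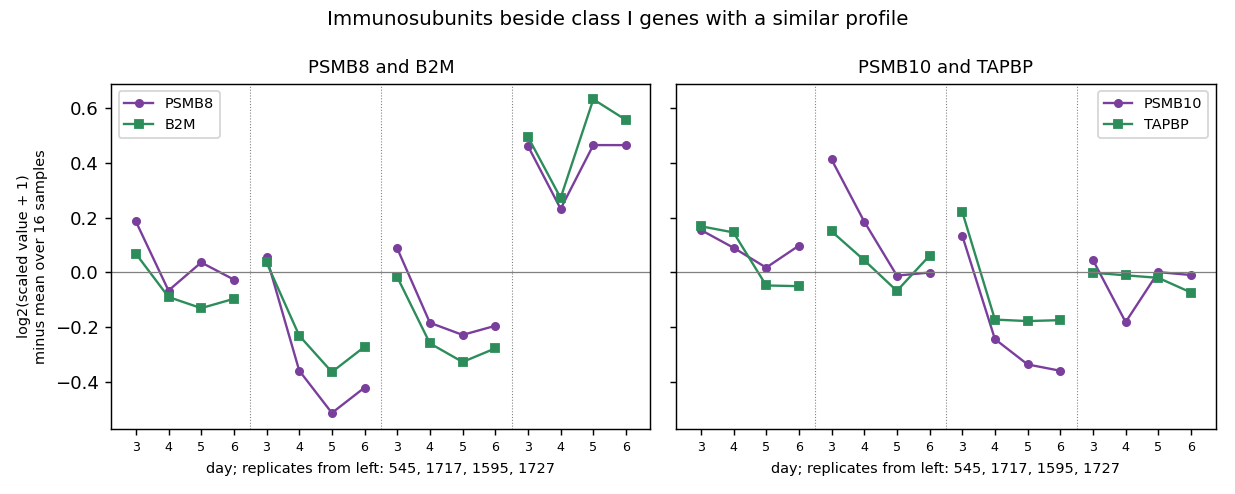
Log2 levels minus their mean over 16 samples (y axis) for PSMB8 with B2M and PSMB10 with TAPBP, by day within the 4 cultures from left to right (x axis; purple circles are the immunosubunit, green squares the class I gene). PSMB8 and B2M run within a root mean square difference of 0.11 and PSMB10 and TAPBP within 0.12.

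Of the class I loading genes HLA-B, HLA-C, B2M, TAP1, TAP2 and TAPBP, 2 of 6 passed on day 3, against 16.2% of all genes, and 0 of 6 between knockdowns, against 0.0%. HLA-C, a class I heavy chain, was 0.37 ± 0.10 (SE) higher on day 3 (limma adjusted p = 0.041), and TAP1, a peptide transporter chain, 0.47 ± 0.13 higher (adjusted p = 0.045), both in 4 of 4 cultures. Both calls were lost when any 1 culture was left out and under each of the 3 other scalings, and without scaling HLA-C was at -0.09 and TAP1 at 0.02. TAP1 was weak, with deposited values from 37 to 89. TAP2, the other chain of the transporter, was at -0.20 ± 0.09 and lay below its later mean on day 3 in 4 of 4 cultures (adjusted p = 0.171; it passed without scaling and scaled by the total). B2M at 0.19 ± 0.09 and TAPBP at 0.18 ± 0.09 did not pass, and both were negative without scaling or scaled by the total. The median over these 6 was 0.21, that of the immunosubunits 0.25, that of the standard subunits 0.02 and that of all genes 0.19. Between knockdowns TAP1, TAP2 and TAPBP differed by 0.07 ± 0.28, 0.18 ± 0.21 and 0.10 ± 0.21 and B2M by -0.27 ± 0.31, PNPase minus SUV3, with limma's adjusted p from 0.857 to 0.938; B2M was at 0.04 without scaling.

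**Figure D5:**
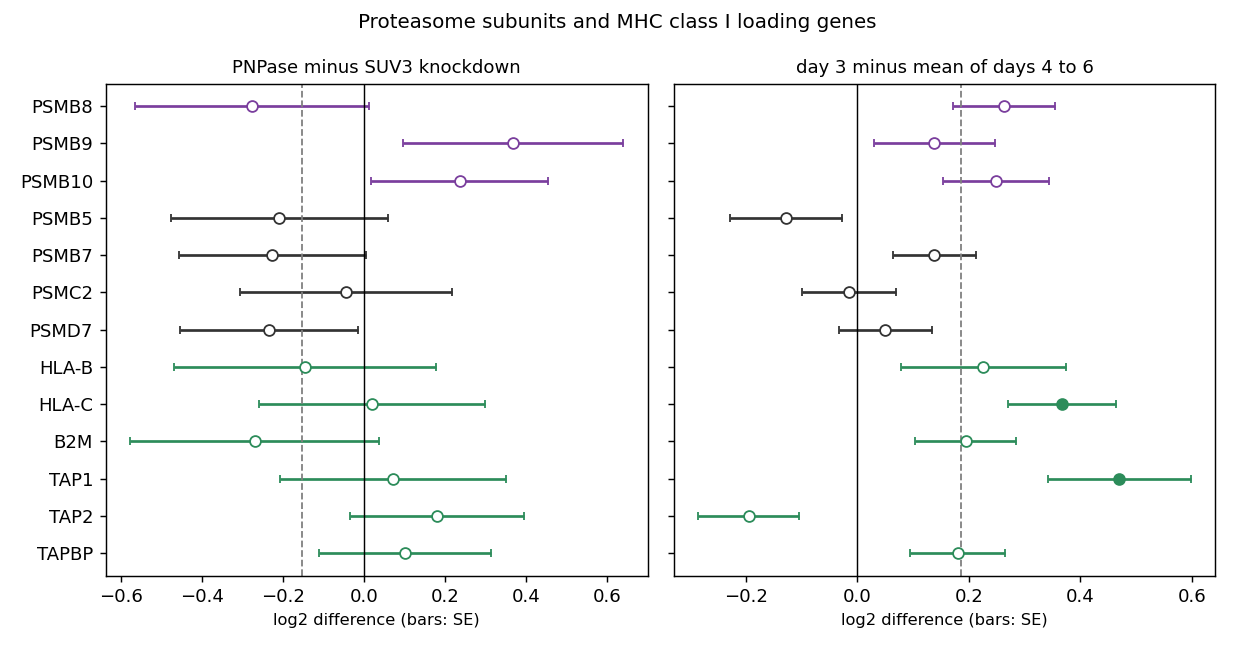
Log2 differences with their SE (x axis) from the limma fits for the 7 subunits (purple immunosubunits, black standard subunits) and 6 MHC class I loading genes (green), PNPase minus SUV3 on the left and day 3 minus the mean of days 4 to 6 on the right. Filled points passed at an adjusted p below 0.05, which were HLA-C and TAP1 on day 3, a call for neither without scaling; dashed lines mark the median of all 594 genes, -0.15 and 0.19. Without scaling the subunits on the right are all negative and those on the left all positive.

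Genes of the interferon pathway, which drives immunosubunits in other settings, were read from the same fits. IFNG averaged a deposited value of 4.25, below the negative control level, and IRF1 55.4. On day 3, 1 of the 8 interferon-gamma pathway genes reported here was higher, against 16.2% of all genes called in either direction. It was SOCS1, an inhibitor of cytokine signalling, at 0.85 ± 0.23 (limma adjusted p = 0.043), a call lost under the 3 other scalings. Of the 12 interferon-stimulated genes 3 were higher on day 3, the sensor gene IFIH1 by 0.80, IFIT2 by 1.34 and the regulator IRF7 by 0.83, against 16.2% of all genes called in either direction, and the list's median was 0.56; these 3 calls were lost without PNPase replicate 545 or 1717. IFIT2 averaged a deposited value of 12.6, below the negative control level, and only 8 of the 12 genes averaged above that level. IRF7 alone of that list passed along the days in SUV3 knockdown, where it fell by 0.58 per day (adjusted p = 0.009), a call lost without replicate 1595. Between knockdowns IRF7 was at -1.28 ± 0.37, PNPase minus SUV3, and did not pass (limma adjusted p = 0.666). Of the 12 interferon-stimulated genes 0 were higher in PNPase knockdown, and the list's median was -0.80, against -0.15 for all genes. Unadjusted, 6 of the 12 had a p below the threshold, against 6.40% of all genes, and 0 passed after adjustment. The immunosubunits did not pass between knockdowns either. PSMB9 and PSMB10 were higher in PNPase knockdown and PSMB8 was lower, though PSMB8 was at 0.03 without scaling. Whether the interferon genes bear on the immunosubunits was not tested. Of the 8 measured genes of ubiquitin and degradation 1 passed on day 3, against 16.2% of all genes. It was CASP8, an apoptosis protease, at 0.63 ± 0.10 (limma adjusted p = 0.007), a call lost without replicate 545 or 1717. Of the 15 housekeeping genes that set the scale, POLR2A and PPIA were higher on day 3, by 0.41 and 0.31, and POLR1B was lower, at -0.59. That is 2 higher and 1 lower of 15, near the 16.2% of all genes called. These values are scaled by the same 15 genes, and POLR2A and PPIA turned negative without scaling.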

How the data were processed

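The deposited values are a score in whole numbers, and no label states how the authors computed it. A table's name points to removal of unwanted variation by the authors, and both deposited tables were identical for all 594 genes. Each sample was divided by the geometric mean of 15 housekeeping genes, centred over samples, and log2(value + 1) was taken. All 594 genes were fitted with limma 3.58.1 in R 4.3.3 (lmFit and eBayes), adjusted p-values after Benjamini and Hochberg at a threshold of 0.05. The fits were first tested on simulated data with planted log2 differences of 1 and 2. These are larger than any difference of the subunits, so that test does not bear on differences of their size. PNPase and SUV3 were compared on 4 culture means, because the days of a culture are not independent samples; all day comparisons used 16 samples with an intercept per culture. The design text states that days 3 to 6 came from each replicate, which pairs samples of a number; their deviations from group means correlated between days with r from 0.04 to 0.67 in PNPase and from 0.23 to 0.60 in SUV3 knockdown. Paired ratios were compared by exact permutation with SciPy 1.17.1; the PSMB9 ratio and its alternatives were added after seeing the data. For PNPase against SUV3, with 2 cultures per knockdown, p-values measure only the spread between these cultures. Those of the day comparisons measure the scatter of samples within these cultures around the fitted slopes or day means. They take the days of a culture as independent once its intercept is removed. Members and lists were chosen with earlier results of these data known. All 7 members, list genes past the threshold, 4 loading genes and the nearest profiles were named. IFNGR2, NLRC5, ITCH, SQSTM1 and TYROBP, listed, were not analysed here, and some withheld items are not reported here. Promoter windows were read from RefSeq.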

Additional observations from a re-analysis of the deposited data

How the results depend on the processing

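The 4 ratio comparisons kept their direction under every alternative run for them. Leaving out a culture could not have reversed any of them, because the culture means of the knockdowns did not overlap for any of these ratios. The difference of the immunosubunit mean over the standard mean was 0.29, and it was 0.20 without day 3, 0.48 without PSMB8, 0.16 without PSMB9 and 0.22 without PSMB10; leaving out 1 culture gave 0.24 to 0.33. Leaving out 1 culture gave 0.41 to 0.52 for PSMB10 over PSMB7 and -0.12 to -0.01 for PSMB8 over PSMB5, and PSMB9 over the standard subunits, 0.55, was 0.41 without day 3 and 0.44 to 0.65 with 1 culture left out.

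Between knockdowns, the differences without scaling were 0.029 for PSMB8, 0.10 for PSMB5, 0.079 for PSMB7, 0.26 for PSMC2, 0.072 for PSMD7 and 0.037 for B2M, all turned from negative, and PSMC2 was at 0.014 when scaled by the total. Leaving out 1 culture gave -0.28 to 0.19 for PSMC2, which was positive at 0.029 without 545 and at 0.19 without 1727, and -0.42 to 0.0059 for PSMB5, positive only without 1727. It gave -0.62 to 0.085 for B2M, positive only without 1727, and -0.17 to 0.32 for TAP1, negative at -0.094 without 1717 and at -0.17 without 1595. On day 3 without scaling, PSMB8 was at -0.20, PSMB9 at -0.32, PSMB10 at -0.21, PSMB7 at -0.32 and PSMD7 at -0.41, all reversed, and PSMB5 at -0.59 and PSMC2 at -0.47 passed, so 2 members were called. Scaled by the total, PSMB9 and PSMB7 were both at -0.078, PSMD7 at -0.17, TAPBP at -0.036 and B2M at -0.022. Without scaling, TAPBP was at -0.28, B2M at -0.27, HLA-C at -0.093, POLR2A at -0.055 and PPIA at -0.15, all reversed. PSMC2 was at 0.013 without day 5; leaving out 1 culture gave -0.096 to 0.067 for PSMC2 and -0.029 to 0.13 for PSMD7. Among genes above the negative controls PSMB8 passed at 0.26, so 1 member was called. The count of all genes passing in that setting is not given here. Per day, without scaling, PSMB8 was at 0.15 in PNPase knockdown, where 2 members passed, and PSMB7 at 0.087 in SUV3 knockdown. PSMB7 was at 0.0016 scaled by the total and at 0.0055 without day 3. Many other genes passed without scaling too, on day 3 and per day in PNPase knockdown, as counted in the next paragraph. The member counts in these settings are therefore not read as a result about the members. The causes were not tested, other than that the scaling sets the level of each sample and fewer samples or genes were tested where some were left out.

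Counts of called genes moved more. Between knockdowns 0 genes passed, and with the replicate as a random replicate block 13, with no replicate block 52; no member was among them, and no culture left out gave a call. For the slope in PNPase knockdown the count was 1, and it was 120 without scaling, 93 with negative controls subtracted, 13 among genes above the negative controls, 7 with the random replicate block, 17 without day 4, and 0 without day 3, 5 or 6; leaving out 1 culture gave 0 to 10. For SUV3 knockdown it was 10, and it was 0 without scaling, with no replicate block and without day 3, 5 or 6, 4 scaled by the total or by the standard subunits, 16 with a pseudocount of 5, 5 with negative controls subtracted and 21 among genes above the negative controls; leaving out 1 culture gave 0 to 2. For the difference of slopes it was 0, and 1 without scaling, with negative controls subtracted, among genes above the negative controls and without day 3; leaving out 1 culture gave 0 to 1. For day 3 it was 96, and 169 without scaling, 179 with negative controls subtracted, 36 with no replicate block, 57 without day 5 and 39 without day 6; leaving out 1 culture gave 10 to 84, the fewest without 1717. The values from the other deposited table were identical and moved nothing. Compared on the culture means, with 2 cultures per knockdown, no gene passed between knockdowns, whatever the size of its difference.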
